A study of Homo sapiens with 6 samples.

Results

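Ovarian clear cell carcinoma is told from other ovarian tumours by a small set of proteins and by recurrent changes in a few genes, and 9 genes that stand for it are described here. They were taken by gene symbol: NAPSA, PAX8, GPC3, FXYD2, CYS1, SPP1, MET, ARID1A and PIK3CA, which are 9 of the 39282 genes in each library's table. All 9 were found, and all 9 were among the 16855 genes that passed the filter on low counts. NAPSA passed through 1 TOV21G library alone (hairpin 1), and FXYD2, PAX8 and CYS1 passed through the TOV21G libraries alone, so a difference between the lines is built into those 4.

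RNA was sequenced from 2 human ovarian tumour lines, 6 libraries in all. TOV21G is labelled a clear cell carcinoma line and PA-1 a teratocarcinoma line, while the tissue label of all 6 libraries is that of cells of the ovarian surface. In each line 1 library carried a scrambled control hairpin and 2 carried lentiviral hairpins against MEX3A (hairpin 1 and hairpin 2), so every library, the controls included, came from virus-infected cells. Each line is a single cultured tumour cell population, the 2 lines were grown in different media, and a difference between lines cannot be told apart from a difference between media. MEX3A, the RNA-binding ubiquitin ligase that was targeted, was at 137, 41.2 and 54.9 CPM in the control, hairpin 1 and hairpin 2 libraries of PA-1 and at 78.3, 40.1 and 33.1 CPM in those of TOV21G. CPM is a library's count for the gene divided by the library's TMM-scaled total, in edgeR's usual unit. All 4 hairpin libraries were below their control.

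Clear cell carcinoma of the ovary often arises in endometriosis and keeps features of Müllerian (female genital tract) and kidney-like epithelium. Pathologists use PAX8 and napsin A (NAPSA) as positive markers, with WT1 and hormone receptors usually negative. Loss of the chromatin remodelling subunit ARID1A and activation of PIK3CA are its best known gene changes, and TOV21G is widely reported to carry both, although count tables show RNA level and no genotype. Teratocarcinoma cells resemble early embryonic cells and lack most of this epithelial programme.

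The lines matched their labels in part. The 8 pluripotent cell markers (POU5F1, SOX2, LIN28A and others) had a summed level between 3532 and 4291 CPM in PA-1 and between 131 and 161 CPM in TOV21G, where 4 of the 8 were at 0 in each library. All 8 passed the test as lower in TOV21G. Those 4 passed the filter on low counts through the PA-1 libraries alone, so their difference is built in and their calls are a description. Epithelial markers did not separate the lines as a set, with 3 of 8 higher and 2 of 8 lower in TOV21G. By the same test 22.1% of all genes were higher and 22.9% lower. EPCAM and the keratin KRT7 passed the filter through the TOV21G libraries alone, so their difference is built in and their calls are a description. EPCAM, an epithelial adhesion molecule, had at most 2 counts in a PA-1 library and 92 to 206 counts in TOV21G, while the keratin KRT8 was lower in TOV21G (log2 fold change -1.02, SE 0.17, edgeR adjusted p = 0.00844). PTPRC, the defining marker of blood cells, had at most 2 counts in any library. PECAM1 and CDH5, from the same list of blood and endothelial markers, had 854 to 1614 and 145 to 567 counts in PA-1. In TOV21G they had at most 3 and 32 counts. Total expected counts ran from 14654628 to 19495162 per library, so 3 counts, taken here as the floor for a count of 0, stand for 0.153 to 0.202 CPM.

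Of the 9 markers, 7 differed between the lines past the test. PAX8, FXYD2, CYS1, SPP1 and MET were higher in TOV21G, GPC3 and ARID1A were lower there, and NAPSA and PIK3CA did not pass. PAX8, FXYD2 and CYS1 are among the genes whose difference the filter had built in, so the number is a description. The test was edgeR's quasi-likelihood test of the mean of the 3 TOV21G libraries against the mean of the 3 PA-1 libraries, with p-values adjusted over all genes by Benjamini and Hochberg and a threshold of 0.05. By the same test 22.1% of all genes were higher and 22.9% lower in TOV21G. In 6 members the CPM of every TOV21G library was above that of every PA-1 library, as in 29.4% of all genes. In 2 every TOV21G library was below, as in 30.8%. The 6 include NAPSA, PAX8, FXYD2 and CYS1, whose difference the filter had built in. For NAPSA the hairpin 2 libraries of both lines held 3 counts and were parted by scaling alone. In TPM they overlapped, at 0.24 in TOV21G and 0.31 in PA-1. The 3 libraries of a line are 3 constructs and not replicates of a condition. Nothing in the labels says that they came from separate cultures. A p-value here reflects no more than how the hairpin libraries of each line scatter, with the estimate shared over genes. The single control of each line adds nothing to that spread and was assumed to vary as the hairpins did. In such bulk samples fewer cells with a transcript and less RNA per cell cannot be told apart.

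**Figure D1:**
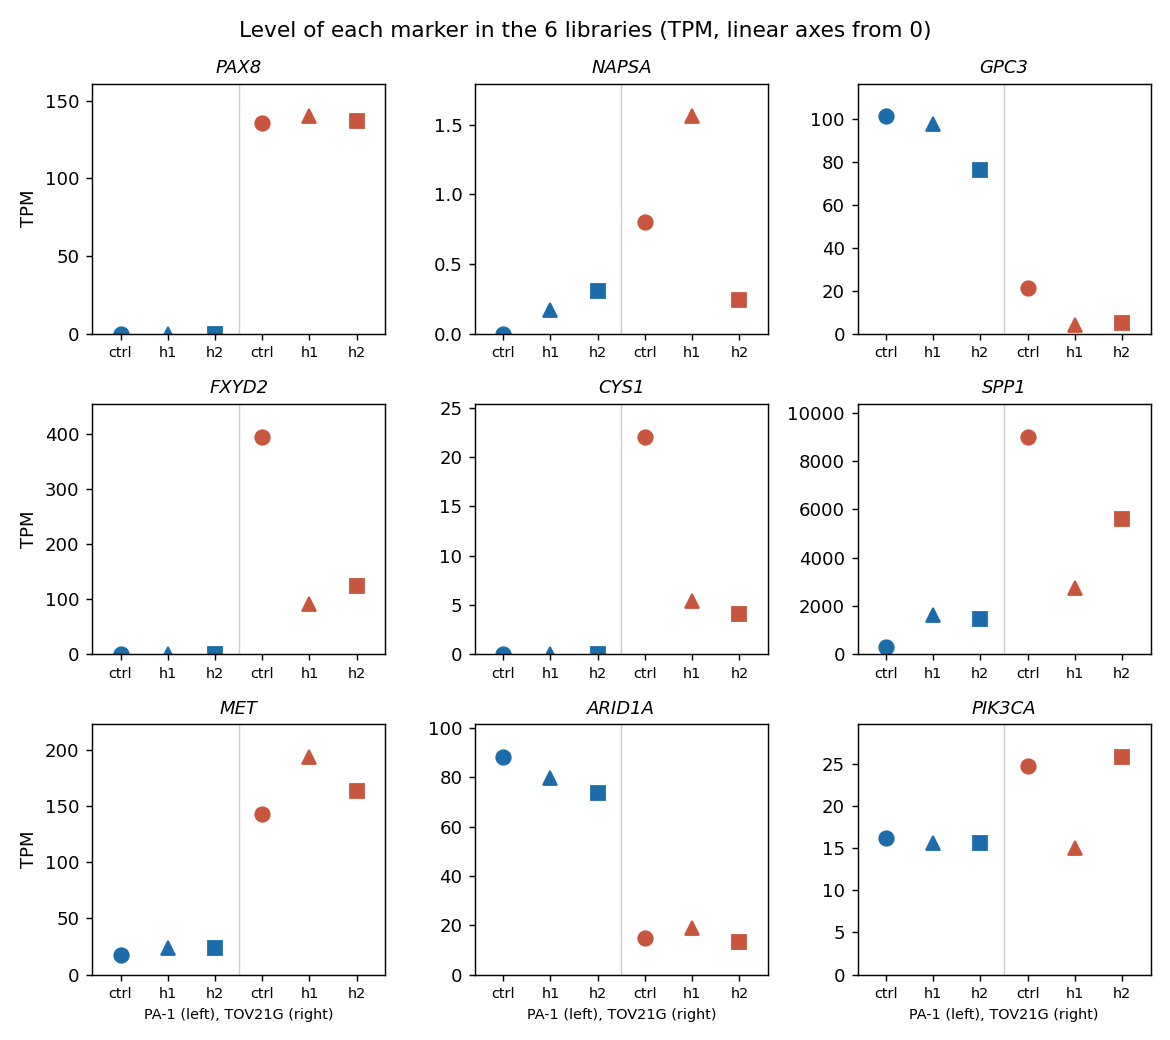
Level of each of the 9 genes in TPM (RSEM's length-scaled transcript abundance, linear axis from 0, own scale per panel) in the control (ctrl, circle), hairpin 1 (h1, triangle) and hairpin 2 (h2, square) libraries of PA-1 (blue, left) and TOV21G (red, right), 1 point per library. PAX8, FXYD2 and CYS1 lie at or near 0 in PA-1, GPC3 and ARID1A are higher in PA-1, and in TOV21G the control stands above both hairpins for GPC3, FXYD2, CYS1 and SPP1.

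PAX8, a paired box transcription factor of Müllerian, kidney and thyroid development, was the most even of the markers within TOV21G. Its levels in TOV21G were 135.91, 139.96 and 137.15 TPM for control, hairpin 1 and hairpin 2 (mean 138 ± 2.08, SD, n = 3). The PA-1 libraries held 3, 0 and 1 counts of it, against 4114, 3679 and 4070 counts in TOV21G, and the groups lie far apart. Over the 3 libraries of each line the CPM ratio was 3396 (95% exact counting interval 1326 to 12464), and the line contrast passed (edgeR adjusted p = 0.000137). An antisense gene, PAX8-AS1, had 0 counts in all PA-1 libraries and 714, 644 and 735 in TOV21G. The strand setting of the counting is not given in the sources used here, so reads of PAX8 and of its antisense partner cannot be told apart where they overlap.

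Other transcription factors of that developmental field differed in both directions. Of 13 listed PAX and Müllerian factors, 9 passed the filter, and 3 were higher and 4 lower in TOV21G, with a median log2 difference of -0.33 against 0.01 over all genes. PAX2, the kidney and Müllerian relative of PAX8, had 16, 1 and 2 counts in PA-1 and 549, 693 and 444 in TOV21G. MECOM, a zinc finger transcription factor, had 13, 24 and 22 counts in PA-1 and 3256, 1897 and 1177 in TOV21G. PAX3, a neural crest and muscle factor, was higher in PA-1 (TOV21G minus PA-1 -3.27, SE 0.22, adjusted p = 0.00064), as was WT1, a usually negative marker (-3.04, SE 0.37, adjusted p = 0.0032). The other 2 usually negative markers were the oestrogen and progesterone receptors ESR1 and PGR. ESR1 passed as higher in TOV21G on few counts, 6, 53 and 38 against 2, 5 and 1, and PGR had at most 7 counts in any library.

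NAPSA encodes napsin A, a lysosomal aspartic protease of lung alveolar and kidney tubule cells and a diagnostic marker of clear cell carcinoma. It was close to absent at this depth in both lines. The PA-1 libraries held 0, 2 and 3 counts and the TOV21G libraries 7, 17 and 3, or at most 1.56 TPM. The summed ratio was 6.18 (counting interval 2.35 to 20.6), and the line contrast did not pass (log2 3.44, SE 1.201, adjusted p = 0.0657). Over 13 alternatives the difference ran from 2.03 to 5.91 and the adjusted p from 0.0189 to 0.234. It passed with a replicate block on the hairpin number (adjusted p = 0.0422), with a block on the construct (0.0421), with the line alone (0.0442) and without TOV21G hairpin 2 (0.0189), and none of these calls is support, since the filter built the difference in. Its pseudogene relative NAPSB had no count in any library. Among the other pepsin-like proteases, 3 of 10 listed genes passed the filter: BACE2 had 0 counts in PA-1 and 595 to 635 in TOV21G, and the lysosomal protease CTSD was higher in TOV21G by 1.02 (SE 0.19, adjusted p = 0.011).

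FXYD2 is the gamma subunit of the sodium-potassium pump of kidney tubules. No count of it was found in any PA-1 library. The TOV21G control had 394.66 TPM, and hairpins 1 and 2 had 90.27 and 123.02 TPM, from 1026, 206 and 297 counts. Set against a floor of 3 counts for the 3 PA-1 libraries together, the summed TOV21G level was 584-fold that floor. The line contrast had an edgeR adjusted p of 0.000817. A readthrough gene, FXYD6-FXYD2, is counted apart and had 2 counts in the TOV21G control.

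Among 11 other FXYD and pump genes, 7 passed the filter, with 2 higher and 1 lower in TOV21G and a median log2 difference of -0.52. FXYD6, a related pump modulator, was higher in TOV21G (log2 6.14, SE 0.50, adjusted p = 0.00112), and so was ATP1B1, the common beta subunit (3.09, SE 0.45, adjusted p = 0.00551). The beta subunit ATP1B2 went the other way and had counts in PA-1 alone, with 158 to 160 counts in each PA-1 library and 0 in each TOV21G library.

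CYS1 encodes cystin, a lipid-anchored protein of primary cilia whose mouse counterpart is mutated in a cystic kidney model. PA-1 held 1, 0 and 1 counts and TOV21G 433, 92 and 79. In TPM these TOV21G libraries were at 22.05, 5.39 and 4.12. The summed ratio between the lines was 346 (counting interval 95.3 to 2862, adjusted p = 0.000308). Of 15 other ciliary and cystic disease genes, all of which passed the filter, 3 were higher and none lower in TOV21G, with a median log2 difference of -0.23. BICC1, an RNA-binding protein of kidney tubules whose loss gives cysts, had 2 or 3 counts in each PA-1 library and 8110 to 10794 in TOV21G. The intraflagellar transport gene IFT88 was higher in TOV21G, with 565, 461 and 592 counts against 266, 248 and 338 (edgeR adjusted p = 0.01).

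SPP1 encodes osteopontin, a secreted phosphoprotein that binds integrins and CD44 and is raised in the blood of many ovarian cancer patients. By TPM it was the most abundant of the 9 transcripts in all 6 libraries. The levels were 284.11, 1618.26 and 1450.06 TPM in the PA-1 control, hairpin 1 and hairpin 2 libraries, and 9012.70, 2759.02 and 5622.22 TPM in those of TOV21G, where SPP1 ranked 6, 43 and 10 among all genes. The lines did not overlap, but the gap depended on the library pair: TOV21G exceeded PA-1 by 36.2-fold in the controls, 1.82-fold with hairpin 1 and 4.42-fold with hairpin 2. The mean line difference was 2.81 (SE 0.38, adjusted p = 0.00437). Without the PA-1 control it was 2.01 (adjusted p = 0.02), and between the controls alone it was 5.18 (adjusted p = 0.0141), against a range of adjusted p up to 0.0247 over the alternatives tried.

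The stretch upstream of SPP1 is shown because SPP1 is the member whose hairpin libraries lay above the control in 1 line and below it in the other, and those of PAX8 and MET because both separate the lines at every library pair. Each is the 250 bases before the RefSeq transcription start (GRCh38.p14), 5′ to 3′ on the gene's strand, at chr4:87975464-87975713 (plus strand), chr2:113278922-113279171 (minus strand) and chr7:116671946-116672195 (plus strand). Capitals mark CpG dinucleotides.
SPP1: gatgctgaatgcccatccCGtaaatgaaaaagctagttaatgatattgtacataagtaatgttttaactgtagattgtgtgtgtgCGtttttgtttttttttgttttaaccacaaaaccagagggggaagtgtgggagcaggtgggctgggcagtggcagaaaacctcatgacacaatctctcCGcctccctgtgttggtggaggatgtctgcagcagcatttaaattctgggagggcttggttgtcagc
PAX8: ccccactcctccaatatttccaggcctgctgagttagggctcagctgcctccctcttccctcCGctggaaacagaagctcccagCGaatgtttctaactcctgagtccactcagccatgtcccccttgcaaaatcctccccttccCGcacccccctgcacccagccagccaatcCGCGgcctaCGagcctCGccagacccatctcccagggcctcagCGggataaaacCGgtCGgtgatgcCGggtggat
MET: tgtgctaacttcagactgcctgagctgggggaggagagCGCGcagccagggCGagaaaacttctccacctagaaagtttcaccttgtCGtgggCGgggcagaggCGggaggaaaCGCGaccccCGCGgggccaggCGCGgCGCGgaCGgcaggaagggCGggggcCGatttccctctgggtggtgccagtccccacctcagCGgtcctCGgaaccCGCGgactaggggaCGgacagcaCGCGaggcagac

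In all, 3 motifs were searched on both strands: TATAAA (the TATA box), TGANTCA (bound by AP-1) and CACGTG (an E-box). None of the 3 was in the stretches of SPP1, PAX8, MET, ARID1A or PIK3CA, and NAPSA had CACGTG at -77 to -72 from the start. Across 35116 RefSeq promoter windows of the same length, 10.7% held TATAAA, 6.57% TGANTCA and 6.34% CACGTG. The SPP1 stretch had 3 CpG dinucleotides and 44.8% G and C, against 11 CpG and 61.6% at PAX8 and 24 CpG and 68.4% at MET, where the median over all windows was 11. GPC3, FXYD2 and CYS1 are named only.

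The receptors of osteopontin were measured beside it. Of 14 listed receptor and family genes, 9 passed the filter, with 5 higher and 2 lower in TOV21G and a median difference of 2.20. ITGB1, the common beta integrin subunit, was higher in TOV21G by 2.28 (SE 0.21, adjusted p = 0.00146). ITGB3, which pairs with ITGAV in the classical osteopontin receptor, had 24, 19 and 22 counts in PA-1 and 6621, 3927 and 22088 in TOV21G (9.10, SE 0.93, adjusted p = 0.00194). ITGA9 was lower in TOV21G (-5.50, SE 0.40, adjusted p = 0.000758).

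GPC3, glypican 3, is a membrane-anchored heparan sulfate proteoglycan of embryonic tissues and yolk sac tumours that is also found in part of clear cell carcinomas. Here it was higher in PA-1. PA-1 had 101.32, 97.76 and 76.33 TPM and TOV21G 21.28, 4.27 and 5.19 TPM, with no overlap. The log2 difference was -3.39 (SE 0.23, adjusted p = 0.00064). PA-1 exceeded TOV21G by 4.18-fold between the controls, 22.1-fold with hairpin 1 and 12.8-fold with hairpin 2. Leaving out the TOV21G control gave -4.14 (adjusted p = 0.000903), and the controls alone gave -2.06 (adjusted p = 0.0245, the highest over the alternatives tried).

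Related proteoglycan genes split. Of 14, 13 passed the filter, with 4 higher and 2 lower in TOV21G and a median of -0.23. SULF2, an extracellular sulfatase that edits heparan sulfate, was higher in TOV21G by 5.48 (SE 0.32, adjusted p = 0.000483), while its relative SULF1 had 96 to 169 counts in PA-1 and 0 in each TOV21G library. The syndecan SDC2 was lower in TOV21G (-1.86, SE 0.24, adjusted p = 0.00387) and SDC3 higher (1.22, SE 0.21, adjusted p = 0.00933).

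MET, the receptor tyrosine kinase for hepatocyte growth factor, is amplified in some clear cell carcinomas. PA-1 had 17.71, 23.85 and 23.89 TPM and TOV21G 142.80, 193.60 and 163.84 TPM. Every TOV21G library exceeded every PA-1 library, by 11.2-fold, 9.85-fold and 9.09-fold in CPM for control, hairpin 1 and hairpin 2. The log2 difference was 3.32 (SE 0.16, adjusted p = 0.000318). The ratio was 9.80 on summed CPM and 7.64 on mean TPM, and the mean transcript length that RSEM assigned to MET was 5427 to 5777 bases in PA-1 and 6589 to 6629 in TOV21G.

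The ligand HGF had at most 2 counts in any library. Of 18 genes around MET, 16 passed the filter, and 6 were higher and 2 lower in TOV21G, with a median of 0.19. PTPRJ, a phosphatase that acts on MET, was higher by 2.62 (SE 0.16, adjusted p = 0.00055). MST1R, the MET relative RON, had at most 3 counts in a PA-1 library and 33 to 56 in TOV21G. The serine protease inhibitor SPINT2, which limits HGF activation, was higher by 1.53 (SE 0.32, adjusted p = 0.0157), and the phosphatase PTPN2 was lower (-1.01, SE 0.16, adjusted p = 0.00685).

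ARID1A, the DNA-binding subunit of the BAF (SWI/SNF) chromatin remodelling complex, was lower in TOV21G and still detected. PA-1 had 88.26, 79.91 and 73.89 TPM (mean 80.7 ± 7.22, SD, n = 3) and TOV21G 14.79, 18.77 and 13.12 TPM (15.6 ± 2.90), with no overlap. PA-1 exceeded TOV21G by 5.29-fold, 4.06-fold and 4.94-fold for control, hairpin 1 and hairpin 2. The log2 difference was -2.24 (SE 0.17, adjusted p = 0.000883).

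Other remodeller subunits differed in both directions. Of 29, 27 passed the filter, with 5 higher and 8 lower in TOV21G and a median of -0.41. SMARCA2, an alternative catalytic ATPase, was higher in TOV21G with 477, 461 and 337 counts, against 3, 26 and 43 in PA-1 (4.97, SE 0.31, adjusted p = 0.000552). SMARCD3 was also higher (1.83, SE 0.28, adjusted p = 0.00663). The PBAF subunit BRD7 (-1.11, SE 0.18, adjusted p = 0.008) and the core subunit SMARCC1 (-1.08, SE 0.18, adjusted p = 0.00824) were lower.

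PIK3CA, the catalytic p110-alpha subunit of phosphoinositide 3-kinase, was the member with the smallest difference. PA-1 had 16.22, 15.66 and 15.65 TPM and TOV21G 24.76, 15.04 and 25.78 TPM, so the hairpin 1 library of TOV21G lay just below the PA-1 libraries and the groups overlapped. The log2 difference was 0.52 (SE 0.29, adjusted p = 0.198). Without that library it was 0.76. That fit leaves 1 knockdown library in TOV21G, so the spread comes from PA-1 alone and no call is drawn from it. Over the alternatives tried the difference ran from 0.30 to 0.76. In the pathway around it, 25 of 26 genes passed the filter, with 6 higher and 7 lower in TOV21G and a median of -0.06. The regulatory subunit PIK3R3 was higher by 2.66 (SE 0.18, adjusted p = 0.000676), the leukocyte catalytic subunit PIK3CD by 1.95 (SE 0.20, adjusted p = 0.00191) and the lipid phosphatase INPP4B by 2.67 (SE 0.34, adjusted p = 0.00369). PHLPP1, a phosphatase of AKT, was lower (-1.86, SE 0.16, adjusted p = 0.00126).

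**Figure D2:**
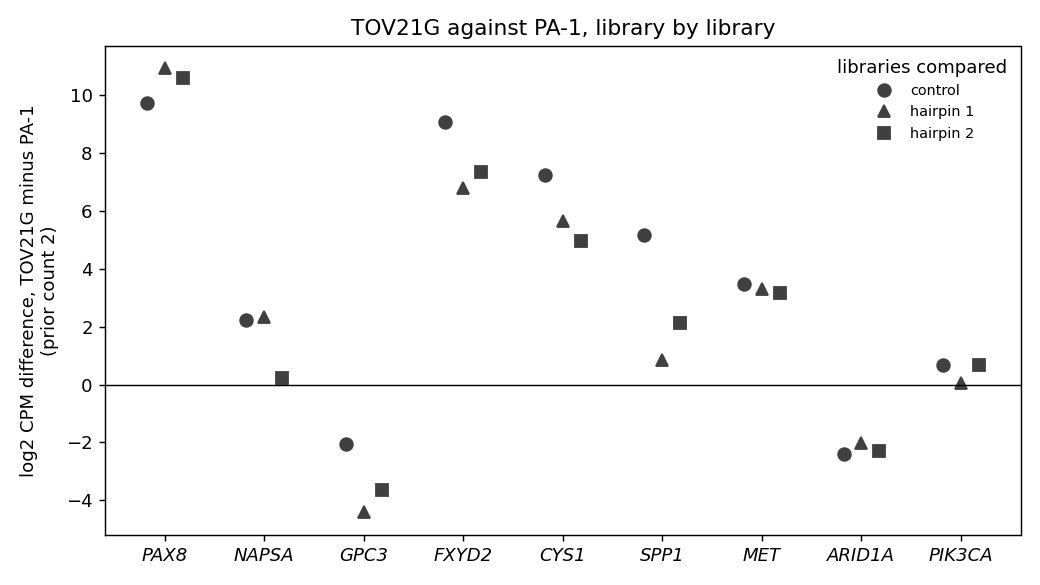
Difference in log2 CPM, TOV21G minus PA-1 (prior count 2), for each of the 9 genes, between the control libraries (circle), the hairpin 1 libraries (triangle) and the hairpin 2 libraries (square). PAX8, FXYD2, CYS1 and MET lie above 0 at all 3 pairs, GPC3 and ARID1A below 0, and SPP1 runs from 0.86 with hairpin 1 to 5.18 between the controls; values of genes with counts near 0 in PA-1 are set partly by the prior count.

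Other genes tied to this tumour type were measured as a list. Of 15 further clear cell markers, 13 passed the filter, and 10 were higher and none lower in TOV21G, with a median of 2.10. LGALS3, galectin 3, was higher by 5.06 (SE 0.20, adjusted p = 0.000211), and the calcium-binding annexin ANXA4 by 3.56 (SE 0.16, adjusted p = 0.000275). The cytokine IL6 had at most 2 counts in PA-1 and 406 to 1516 in TOV21G. ABCC3, a transporter that exports organic anions, was higher by 6.09 (SE 0.49, adjusted p = 0.00103).

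Within each line, each MEX3A hairpin was set against the single control. For 1 library against 1, a gene was counted where both hairpins lay 2-fold or more to the same side of the control. In PA-1 this held for 1 member, SPP1, upward, where 3.36% of all genes did so, and for 0 members downward, where 0.682% did. In TOV21G it held for 0 members upward, against 4.26% of all genes, and for 3 downward, GPC3, FXYD2 and CYS1, against 3.36%. The edgeR test called no member in PA-1 and none in TOV21G, and it called 0% of all genes in each of these 2 contrasts. At an unadjusted p under 0.05 it held 448 genes (2.66%) in PA-1, SPP1 among the members. In TOV21G it held 1671 (9.91%), with GPC3, FXYD2 and CYS1. DESeq2 on the same counts called 36 of 15547 genes in PA-1 and 226 of 11953 in TOV21G, with those same 1 and 3 members.

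**Figure D3:**
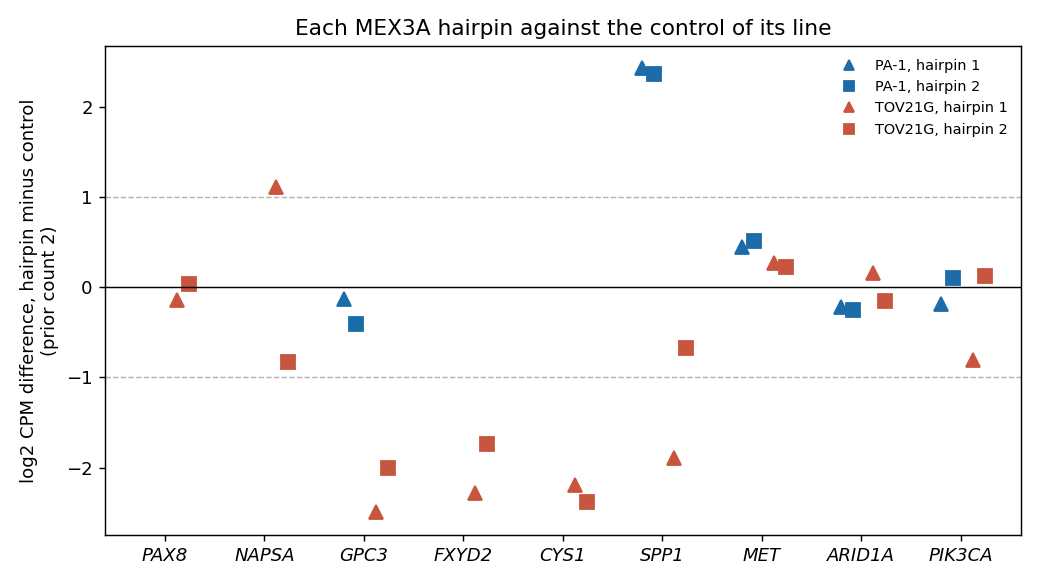
Difference in log2 CPM, hairpin minus the control of its line (prior count 2), for hairpin 1 (triangle) and hairpin 2 (square) in PA-1 (blue) and TOV21G (red); dashed lines mark a 2-fold difference, and members at or under 3 counts in all PA-1 libraries have no blue points. SPP1 is near 2.4 with both hairpins in PA-1 and below 0 with both in TOV21G, and GPC3, FXYD2 and CYS1 lie below -1 with both hairpins in TOV21G.

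GPC3, FXYD2 and CYS1 were low in both TOV21G hairpin libraries. GPC3 was at 22.2 CPM in the control and at 3.82 and 5.44 CPM, or 17.3% and 24.6% of the control, with hairpins 1 and 2. The fitted log2 difference was -2.26 (SE 0.31, edgeR unadjusted p = 0.000708, adjusted p = 0.372). DESeq2 gave -2.25 (adjusted p = 0.000176), and the adjusted p ran from 0.000176 to 1 over 9 alternatives, all with the same sign. In PA-1, where GPC3 was at 92.5, 84.3 and 69.7 CPM, the hairpins left 91.1% and 75.3% of the control (-0.26, SE 0.30, adjusted p = 1).

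FXYD2 was at 66.6, 13.6 and 20.0 CPM in TOV21G, which left 20.4% and 29.9% of the control. The edgeR difference was -1.99 (SE 0.36, unadjusted p = 0.00485, adjusted p = 0.379), while DESeq2's adjusted p was 0.0292, the lowest over its 9 alternatives, of which the highest was 1. CYS1 was at 28.1, 6.07 and 5.31 CPM, or 21.6% and 18.9% of the control. Its edgeR difference was -2.30 (SE 0.38, unadjusted p = 0.000785, adjusted p = 0.372), while DESeq2's adjusted p was 0.0428, within a range of 0.0285 to 1 over 9 alternatives. Without the hairpin 1 library of TOV21G, the edgeR differences were -2.03 for GPC3, -1.74 for FXYD2 and -2.41 for CYS1. Without the hairpin 2 library they were -2.54, -2.30 and -2.22. Each of these fits leaves 1 knockdown library in TOV21G, so the spread comes from PA-1 alone and no call is drawn from it. Since 1 control library is shared by both hairpins, all these values rest on that library.

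SPP1 lay on opposite sides of the control in the 2 lines. In PA-1 it was at 166 CPM in the control and at 894 and 852 CPM with hairpins 1 and 2, which is 5.38-fold and 5.13-fold the control (2.39, SE 0.60, edgeR unadjusted p = 0.0101, adjusted p = 1). With DESeq2 the adjusted p was 0.00371 (log2 2.38), the lowest of 9 alternatives, of which the highest was 1. In TOV21G it was at 6019 CPM in the control and at 1625 and 3765 CPM, or 27.0% and 62.6% of it (-1.16, SE 0.51, adjusted p = 0.532), and the difference was -0.68 (adjusted p = 0.122) without hairpin 1 and -1.89 (adjusted p = 0.0766) without hairpin 2. The difference between the lines' effects was -3.55 (SE 0.78, edgeR unadjusted p = 0.00583, adjusted p = 1), and it was -3.07 (adjusted p = 0.106) without TOV21G hairpin 1 and -4.29 (adjusted p = 0.189) without TOV21G hairpin 2. The test of a difference between lines called 0% of all genes and no member in edgeR. At an unadjusted p under 0.05 it held 613 genes (3.64%), GPC3 (-1.99, SE 0.44) and SPP1 among the members. DESeq2 called 19 of 14567 genes and 1 member, SPP1.

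Some RNAs outside the 9 differed between the same libraries. In TOV21G the nuclear long noncoding RNA MALAT1 was at 4315 CPM in the control and at 9429 and 18455 CPM with the hairpins, and NEAT1 at 361, 1133 and 1068 CPM. The summed level of the 8 fibroblast markers was 200.5, 483 and 529 CPM, carried by the collagens COL1A1 and COL1A2, that of the 8 epithelial markers 169, 278 and 246 CPM, and that of the 8 blood and endothelial markers 2.53, 3.43 and 9.07 CPM. In PA-1, NEAT1 was at 119, 270.5 and 273 CPM, and the fibroblast sum at 209.6, 323 and 419 CPM. The blood and endothelial sum there was 85.4, 70.2 and 115.7 CPM. The part of these values in the differences of GPC3, FXYD2, CYS1 and SPP1 was not tested.

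PAX8, MET and ARID1A were within 2-fold of their controls where they could be measured. PAX8 was at 267, 243 and 273 CPM in TOV21G, and its hairpin libraries held 90.8% and 102% of the control (-0.05, SE 0.33, adjusted p = 0.99). MET was above the control in all 4 hairpin libraries, at 136% and 143% of it in PA-1 (42.1, 57.3 and 60.1 CPM) and at 120.0% and 116% in TOV21G (470.2, 564 and 547 CPM). Neither line passed (0.48, SE 0.22, adjusted p = 1, and 0.24, SE 0.22, adjusted p = 0.737). ARID1A was at 85.7% and 84.1% of the control in PA-1 (-0.24, SE 0.24, adjusted p = 1) and at 112% and 90.1% in TOV21G (0.01, SE 0.25, adjusted p = 1). A p that missed the threshold does not show that these levels were equal.

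PIK3CA split between the hairpins of TOV21G. Its levels were 71.1, 40.6 and 77.2 CPM, with the hairpins at 57.1% and 109% of the control (-0.27, SE 0.43, adjusted p = 0.85). In PA-1 the hairpins held 87.8% and 107% of the control (-0.04, SE 0.43, adjusted p = 1). NAPSA had 17 counts with hairpin 1 and 3 with hairpin 2 against 7 in the TOV21G control (0.54, SE 1.08, adjusted p = 0.892), too few for a direction.

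In the 11 lists of related genes, 138 different genes were tested, and edgeR called none of them in either knockdown contrast. At an unadjusted p under 0.05 there were 11 in PA-1 and 15 in TOV21G, where 2.66% and 9.91% of all genes had such a p. DESeq2 called 2 in PA-1 (TFPI2 and SULF2) and 3 in TOV21G (ANXA4, TFPI2 and ITGA5). ANXA4, like the 3 members above, was lower in TOV21G with both hairpins, at 649.7, 197 and 199 CPM (-1.71, SE 0.21, edgeR adjusted p = 0.372). In PA-1 it was above the control with both, at 17.6, 30.3 and 28.9 CPM (0.75, SE 0.23, edgeR unadjusted p = 0.0212, adjusted p = 1). DESeq2 called ANXA4 in the TOV21G knockdown and in the difference between lines. TFPI2, a secreted protease inhibitor used as a serum marker of clear cell carcinoma, was higher with both hairpins in both lines: 3.34, 20.2 and 55.3 CPM in PA-1 (3.50, SE 0.74, adjusted p = 1) and 41.2, 519 and 443 CPM in TOV21G (3.55, SE 0.71, adjusted p = 0.379). LGALS3 was at 101, 86.5 and 81.2 CPM in TOV21G. The 13 further clear cell markers had a median knockdown difference of -0.13 in TOV21G and 0.14 in PA-1, against 0.02 and 0 over all genes.

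Receptors of osteopontin were uneven between the TOV21G hairpins. CD44 was at 411, 241.5 and 1591 CPM in the control, hairpin 1 and hairpin 2 libraries. ITGAV was at 531, 708 and 2528 CPM, and ITGB3 at 430.1, 259 and 1484 CPM. The hairpin 2 library stood highest for all 3, while SPP1 was highest in the control. ITGB1 went otherwise, at 2420, 3882 and 2938 CPM, highest with hairpin 1. ITGA5, another receptor subunit, was at 39.4, 100.1 and 219 CPM (2.02, SE 0.54, edgeR adjusted p = 0.415), and DESeq2 called it. SPINT1, an inhibitor of the proteases that activate HGF, was above the control with all 4 hairpin libraries, with 26, 97 and 193 counts in PA-1 (2.26, SE 0.51, adjusted p = 1) and 72, 217 and 232 in TOV21G (1.67, SE 0.45, adjusted p = 0.415). FXYD6 and ATP1B1, companions of FXYD2, were below the control with both TOV21G hairpins, at 54.4, 16.8 and 39.8 CPM and at 486, 141 and 337 CPM.

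**Figure D4:**
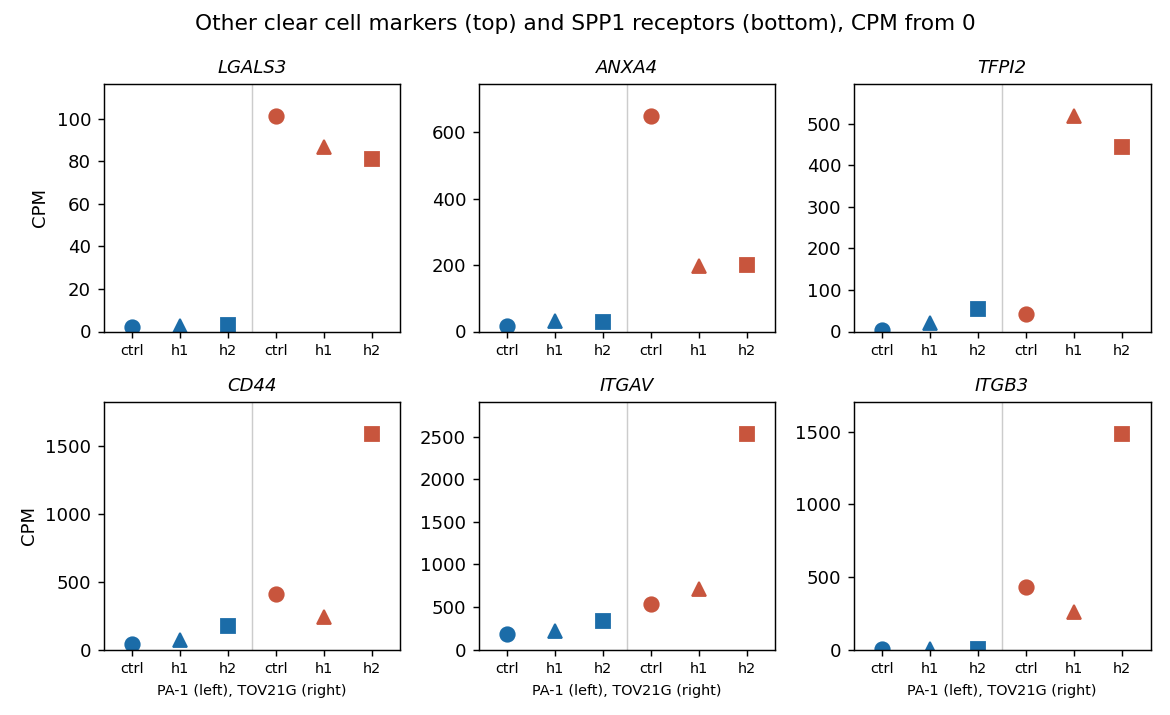
CPM (linear axis from 0, own scale per panel) of 3 other clear cell markers (LGALS3, ANXA4, TFPI2) and 3 osteopontin receptor genes (CD44, ITGAV, ITGB3) in the control (circle), hairpin 1 (triangle) and hairpin 2 (square) libraries of PA-1 (blue) and TOV21G (red), 1 point per library. ANXA4 is at 649.7 CPM in the TOV21G control and near 200 with both hairpins, TFPI2 is higher with both, and the 3 receptor genes stand highest in the TOV21G hairpin 2 library.

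The genes nearest in pattern to each member were found from the root mean square difference of centred log2 CPM over the 6 libraries, among 16854 other genes. FXYD2 lay nearest to DOCK10 (0.24) and XKR7 (0.28), GPC3 to PPP4R1L (0.16) and EMILIN3 (0.22), and CYS1 to LINC01159 (0.36) and LOC101928465 (0.38). NAPSA lay nearest to LOC107985499 (0.17) and LOC105369714 (0.24). For SPP1 the nearest were SLC8A1 (0.44) and CRYM (0.47). ARID1A was nearest to WASF3 (0.06) and RCBTB2 (0.07), PIK3CA to BTBD1 (0.05) and STT3A (0.05), MET to BEX5 (0.10) and DENND3 (0.13), and PAX8 to GPRIN3 (0.42) and TM4SF1 (0.46). All these distances are over the same 6 libraries, which share the difference between the 2 lines. For NAPSA in both lines, and for FXYD2, PAX8 and CYS1 in PA-1, counts were low and the prior count of 2 sets part of the pattern.

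By position in RefSeq (GRCh38.p14), the members are spread over 8 chromosomes. PAX8 is at chr2:113215997-113278921 on the minus strand, and CYS1 at chr2:10056473-10080411 on the minus strand. FXYD2 lies at chr11:117820057-117828089 (minus), GPC3 at chrX:133535745-133985594 (minus) and NAPSA at chr19:50358477-50369302 (minus). SPP1 lies at chr4:87975714-87983411 (plus), MET at chr7:116672196-116798377 (plus), ARID1A at chr1:26696015-26782104 (plus) and PIK3CA at chr3:179148126-179240093 (plus).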

How the data were processed

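Per the submitters' processing notes, reads were handled with cutadapt 1.12, STAR 2.5.3a, RSEM 1.2.31 and edgeR 3.26.8, with hg38 as the build. Their roles, the annotation release and the strand setting are not given in the sources used here. Per the file headers, the authors deposited the RSEM expected count of each gene, its TPM and its abundance-weighted transcript length (used here as another value, in bases). TPM is scaled to a fixed total and per length, so it serves to compare genes, and it keeps no depth. Genes with near-identical copies, readthrough or antisense partners are less certain.

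Expected counts, as deposited, were rounded. R 4.3.3 with edgeR 4.0.16 and limma 3.58.1 was used: TMM scaling, filterByExpr (minimum count 10, here about 0.632 CPM), 1 mean for each of 4 groups and 2 residual degrees of freedom. The biological coefficient of variation was 0.295. The approximate SE was obtained from each contrast's log2 fold change and F statistic. Each hairpin was also set against its control with a prior count of 2 and no test. DESeq2 1.42.0, RLE size factors, no filter, the older quasi-likelihood fit, other scales and prior counts, replicate blocks and leaving out libraries were the alternatives, and leaving out each control in the line contrast was added after seeing the data. The fit was tested on simulated data. Intervals are 95% exact counting intervals, and they and the floor of 3 counts cover counting error only.

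The members and lists were chosen with earlier results of these data known. The genes named are all members, MEX3A, up to 4 genes per list with the smallest p in the line contrast, up to 2 more per knockdown contrast, and the 2 genes nearest in pattern to each member. HGF, PGR, PTPRC, NAPSB, FXYD6-FXYD2, PAX8-AS1, MALAT1 and NEAT1 were given beyond that rule, after their values were seen. So were the knockdown values of CD44, ITGB3, ATP1B1 and LGALS3, and those of ITGB1 in TOV21G. Some genes of the lists are not reported here, and counts over lists leave them out. Promoter windows come from RefSeq (GRCh38.p14), which held 6 of the 9 members.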

Additional observations from a re-analysis of the deposited data

Results flagged for a closer look

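The difference between the lines in the hairpin effect on SPP1 passed in DESeq2 alone. There the TOV21G knockdown effect minus the PA-1 knockdown effect was -3.53 on the log2 scale (adjusted p = 0.00256). Over 9 alternatives the adjusted p ran from 0.00256 to 1, and the difference kept its sign in all 9. Both PA-1 hairpin libraries were above their control and both TOV21G hairpin libraries below theirs. The edgeR test of the same difference did not pass, and each line's effect rests on 1 control library. The TOV21G effect by itself passed in neither edgeR (adjusted p = 0.532) nor DESeq2 (adjusted p = 0.369).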

How the results depend on the processing

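Of 342 alternative values, 318 kept their direction and their side of the threshold. DESeq2 called 1 member in the PA-1 knockdown, 3 in the TOV21G knockdown and 1 in the difference between lines, where edgeR called 0 of each. Over all genes DESeq2 called 36, 226 and 19 in these contrasts. Leaving out 1 library gave between 0 and 3 members called in the TOV21G knockdown, 3 without hairpin 1, when the spread comes from PA-1 alone. Over all genes, 7589 were called in the line contrast, against 4080 without PA-1 hairpin 1, 4109 without PA-1 hairpin 2, 2589 between the controls alone, 9993 without TOV21G hairpin 1 and 9553 without TOV21G hairpin 2, and the blocks gave 8740 (hairpin number) and 9123 (construct). With a prior count of 0.5, 3 members in place of 1 were at least 2-fold from the PA-1 control with both hairpins, the added ones being at or under the floor there. Signs changed for differences near 0. ARID1A in the TOV21G knockdown was -0.01 (-0.0121) with no filter and ran from -0.15 to 0.16 when 1 library was left out. Over the same omissions PIK3CA ran from -0.19 to 0.10 in the PA-1 knockdown, from -0.81 to 0.12 in the TOV21G knockdown and from -0.78 to 0.15 in the difference between lines, and PAX8 from -0.14 to 0.0316 in the TOV21G knockdown. The cause was not tested.

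The hairpin numbers name a shared reagent and do not pair the samples by source, and deviations of same-numbered libraries had a correlation of 0.24 over 16855 genes. A replicate block on the hairpin number called 8 members in place of 7 in the line contrast, and so did a block on the construct and a fit with the line alone. The added member was NAPSA (3.34, 2.48 and 2.54, edgeR adjusted p = 0.0422, 0.0421 and 0.0442), which also passed without TOV21G hairpin 2 (3.73, adjusted p = 0.0189). It passed the filter through 1 library, so its difference is built in and these calls are no support. The block changed no other member's call. Depth limits NAPSA in both lines and FXYD2, PAX8 and CYS1 in PA-1.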
